A study of Mus musculus with 6 samples.

Results

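The genes described here are 35 genes of DNA replication and mitosis, chosen by gene symbol as a set of cell cycle genes, with earlier results of these data known, out of 17666 genes in the deposited table. All 35 were found in it by gene symbol. Transcript levels were measured by RNA sequencing in auditory nerves dissected from the cochleas of 3 FactorB KO mice and 3 wildtype mice, all young adults of 1.5 to 2.5 months on a C57 background. FactorB is complement factor B, a protease of the alternative complement pathway encoded by Cfb, and the labels do not say how, or in which cells, the gene was disrupted. Each library holds the nerves of the 2 cochleas of 1 mouse. The values are normalized counts, that is gene counts which the authors scaled per library and rounded to whole numbers.

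A cell that divides first loads the MCM helicase onto its replication origins, which is called licensing. Cyclin-dependent kinases driven by cyclins D and E then start DNA synthesis, and cyclins A and B with Cdk1 drive the cell into mitosis, where kinases of the Aurora and Polo families build the spindle and the kinetochore checkpoint holds back anaphase until every chromosome is attached. In the adult cochlear nerve the neurons no longer divide and myelinating Schwann cells are largely quiescent. The comparison between labels asks whether the level of these transcripts differs with the knockout.

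The targeted gene went against the labels, so groups are named below as labelled. Cfb had 336, 351 and 376 normalized counts in libraries labelled knockout, against 55, 39 and 116 in those labelled wildtype. Whether these reads lie in the disrupted part of the gene could not be checked from counts per gene. Every direction below is therefore between libraries as labelled. The columns summed to between 38675077 and 41496282, totals that the scaling set, so the read depth of a library is unknown. Nerve markers were abundant in every library: the summed level of 13 peripheral myelin genes was 460640 to 556765 normalized counts in libraries labelled knockout and 461164 to 819331 in those labelled wildtype, and that of 13 spiral ganglion neuron genes was 532371 to 654329 in the libraries labelled knockout and 360095 to 648975 in those labelled wildtype. Wildtype replicate 3 stood apart. It had the highest levels of red cell and marrow transcripts, and it was the highest of the 6 libraries for 27.6% of all genes. It was also the lowest library in neuron markers. In myelin markers it lay below the other wildtype libraries but within the range of the libraries labelled knockout. The neuron genes lay on average -0.55 from their own means there on the log2(normalized count + 1) scale. The values were 0.28 and -0.05 in wildtype replicates 1 and 2, and -0.03, 0.20 and 0.14 in knockout replicates 1, 2 and 3. The myelin genes lay at -0.19 there, against 0.21 and 0.37 in wildtype replicates 1 and 2, and at -0.16, -0.02 and -0.21 in knockout replicates 1, 2 and 3.

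Most of the 35 genes were expressed at a low level. Means over the 6 libraries lay between 5.17 normalized counts (Ccnb1) and 1974 (Ccnd2). The mean was under 50 for 11 genes and at least 50 for 24. Per kilobase of the longest coding transcript, 32 of the 35 lay below the median of all genes with a known length, and their median percentile was 20.7. The highest level per kilobase was that of Pcna, the sliding clamp of DNA polymerase, with 586.8 normalized counts per kilobase (percentile 70.4). Rrm1, the large subunit of ribonucleotide reductase, followed with 343.4 and the G1 cyclin gene Ccnd2 with 311.9. At the other end, Ccnb1, Bub1 and Cenpf had 2.08, 2.19 and 2.38 normalized counts per kilobase. The genes most used to mark dividing cells were also low, with 9.77 for Mki67 and 8.46 for Top2a.

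**Figure D1:**
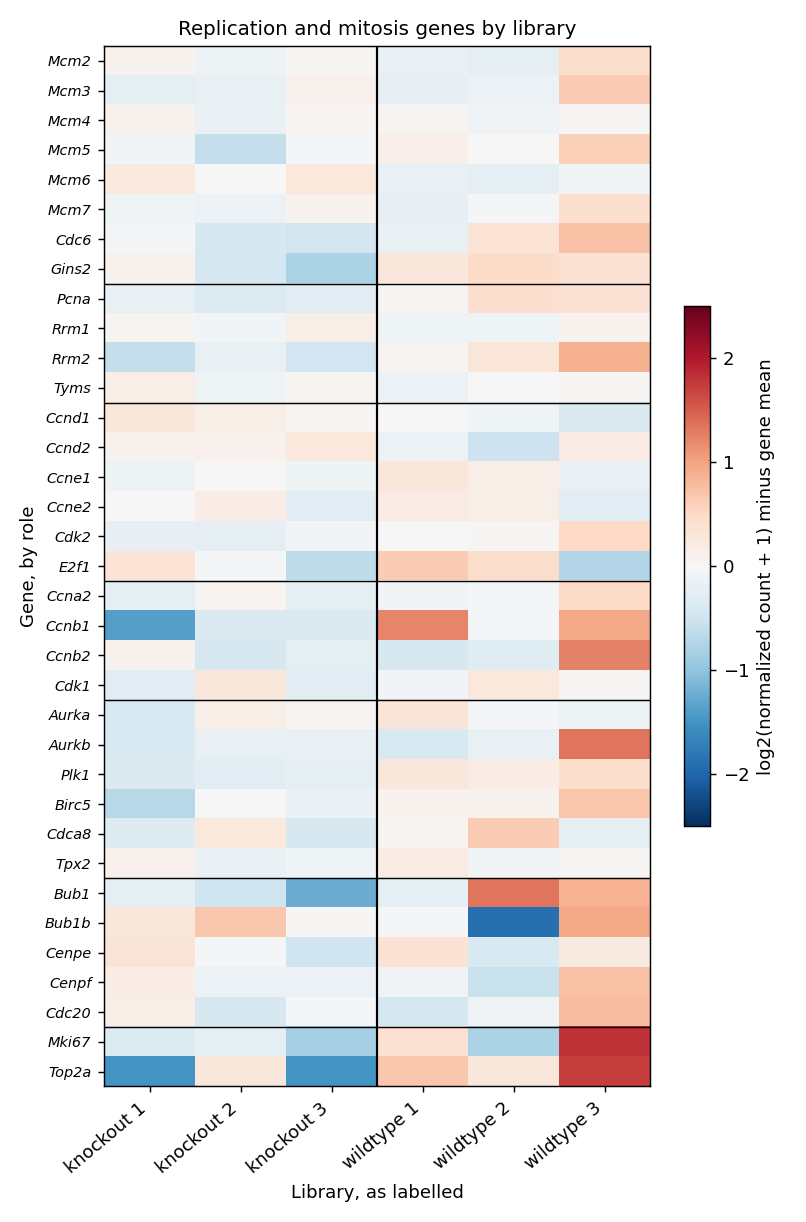
Deviation of each gene from its own mean over the 6 libraries, on the log2(normalized count + 1) scale, for the 35 genes in rows grouped by role and the 3 libraries labelled knockout left of the 3 labelled wildtype. Wildtype replicate 3 is the highest library for 17 of the 35 genes, most visibly for Mki67 and Top2a.

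Promoters of cell cycle genes are known to carry sequence elements that time their transcription, and a few are shown here because their elements differ between replication genes and mitosis genes. E2F factors bind TTTGGCGC and its close forms in genes of S phase. The cell cycle homology region (CHR), TTTGAA, is bound by the MuvB complexes that keep mitotic genes off in resting cells, and CCAAT is bound by NF-Y. Each was searched on both strands in the RefSeq promoters of build GRCm38.p6, which run from 250 bases before to 50 after the start. Entries were found for 27 of the 35 genes, 28 promoters in all. An E2F form (TTTGGCGC, TTTCCCGC, TTTGCCGC or TTTCGCGC) was present in 6 of 14 promoters of replication and S entry genes and in 1 of 14 promoters of mitosis genes, against 2.26% of all 32851 promoters. TTTGAA was present in 10 of 14 promoters of mitosis genes and in 1 of 14 of the others, against 17.9% of all. CCAAT was present in 13 of 14 promoters of mitosis genes and 10 of 14 of the others, against 37.4% of all. A match is a run of letters and does not show binding, and sites of different motifs overlapped 2 times in these 28 promoters. Matches are in capitals below, in the promoters of Mcm5 (chr8:75109259-75109558, plus strand), Mcm6 (chr1:128359656-128359955, minus strand), Pcna (chr2:132253131-132253430, minus strand), Plk1 (chr7:122159185-122159484, plus strand) and Top2a (chr11:99024140-99024439, minus strand), each written 5′ to 3′ along its gene. In Mcm5 and in Mcm6 an E2F form on one strand overlaps one on the other.
Mcm5: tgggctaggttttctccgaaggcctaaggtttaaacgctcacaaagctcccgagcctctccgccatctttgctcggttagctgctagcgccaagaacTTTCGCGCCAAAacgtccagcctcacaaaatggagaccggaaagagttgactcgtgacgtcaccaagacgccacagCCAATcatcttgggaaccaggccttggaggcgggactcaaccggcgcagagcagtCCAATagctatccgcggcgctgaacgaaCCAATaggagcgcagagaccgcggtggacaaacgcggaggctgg
Mcm6: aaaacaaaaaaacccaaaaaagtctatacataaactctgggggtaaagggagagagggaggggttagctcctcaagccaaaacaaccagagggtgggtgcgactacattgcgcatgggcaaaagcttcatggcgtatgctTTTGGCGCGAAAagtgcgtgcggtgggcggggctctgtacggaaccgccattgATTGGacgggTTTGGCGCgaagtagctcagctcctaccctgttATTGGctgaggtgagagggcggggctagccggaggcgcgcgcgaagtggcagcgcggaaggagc
Pcna: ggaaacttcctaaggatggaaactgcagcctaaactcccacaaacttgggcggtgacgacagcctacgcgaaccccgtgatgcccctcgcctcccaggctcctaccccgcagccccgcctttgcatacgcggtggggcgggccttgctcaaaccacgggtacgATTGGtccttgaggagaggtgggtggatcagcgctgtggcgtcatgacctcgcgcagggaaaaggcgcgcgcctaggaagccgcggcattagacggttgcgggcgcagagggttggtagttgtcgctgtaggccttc
Plk1: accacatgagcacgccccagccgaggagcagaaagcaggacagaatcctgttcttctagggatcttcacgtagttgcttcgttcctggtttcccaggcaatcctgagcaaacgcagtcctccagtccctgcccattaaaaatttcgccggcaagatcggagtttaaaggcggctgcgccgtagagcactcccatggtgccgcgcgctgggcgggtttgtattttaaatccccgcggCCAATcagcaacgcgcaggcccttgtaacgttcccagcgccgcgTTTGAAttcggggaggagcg
Top2a: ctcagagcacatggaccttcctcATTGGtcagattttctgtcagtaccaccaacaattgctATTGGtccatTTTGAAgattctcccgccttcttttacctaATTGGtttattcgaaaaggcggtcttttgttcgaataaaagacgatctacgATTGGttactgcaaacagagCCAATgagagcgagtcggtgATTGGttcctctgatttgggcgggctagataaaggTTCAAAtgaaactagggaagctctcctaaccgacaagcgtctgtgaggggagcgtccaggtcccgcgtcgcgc
Mcm5 and Mcm6 hold E2F forms and no TTTGAA, Plk1 and Top2a hold TTTGAA and no E2F form, and Pcna holds CCAAT alone of the motifs searched.

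Taken over all 35 genes, levels lay slightly lower in the libraries labelled knockout, and no gene passed the test. The mean deviation of the 35 genes from their own means, on the log2(normalized count + 1) scale, was -0.15, -0.10 and -0.24 in knockout replicates 1, 2 and 3, against 0.06, -0.02 and 0.45 in wildtype replicates 1, 2 and 3. The groups did not overlap, but wildtype replicate 2 lay close to the nearest knockout library and wildtype replicate 3 far above all others. The difference of the group means was -0.33 (mean -0.16 ± 0.07 in the libraries labelled knockout and 0.16 ± 0.25 in those labelled wildtype, SD, n = 3 each). Without wildtype replicate 3 it was -0.185. The genes of low level carried more of it: the difference was -0.70 over the 11 genes with a mean under 50 and -0.16 over the 24 with a mean of at least 50. The median log2 difference of the 35 genes was -0.19, against 0.01 over all genes, and 29 of the 35 (82.9%) were below 0, against 49.2% of all genes; without wildtype replicate 3, 21 of 35 were below 0. In bulk tissue fewer cells of a type and less RNA per cell cannot be told apart.

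By limma, 0 of the 35 genes passed an adjusted p of 0.05, where 28 of all 17666 genes did (0.158%; 0.0566% lower and 0.102% higher in the libraries labelled knockout). At an unadjusted p under 0.05 there were 7 (20% of the 35, against 20.0% of all genes), of which 6 were lower in the libraries labelled knockout and 1 higher, against 9.20% and 10.8% of all genes. That share of the 35 is the same as the background. Of the 32 genes with a false discovery rate in the authors' deposited table, 1 (Pcna) was under 0.05 and lower, against 7.39% of all genes with a rate (3.25% lower and 4.14% higher); 3 genes (Ccnb1, Aurkb and Bub1) had no rate. In 8 of the 35 (22.9%) all 3 libraries labelled knockout lay below all 3 labelled wildtype, against 14.9% of all genes, and in 2 (5.71%) all lay above, against 13.6%. The smallest adjusted p was 0.162, for Pcna. The 95% intervals were wide, with a median half-width of 0.61 on the log2 scale, and for 16 genes they reached a difference of 1 or more in size, so a 2-fold difference between labels lay within the interval for those.

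**Figure D2:**
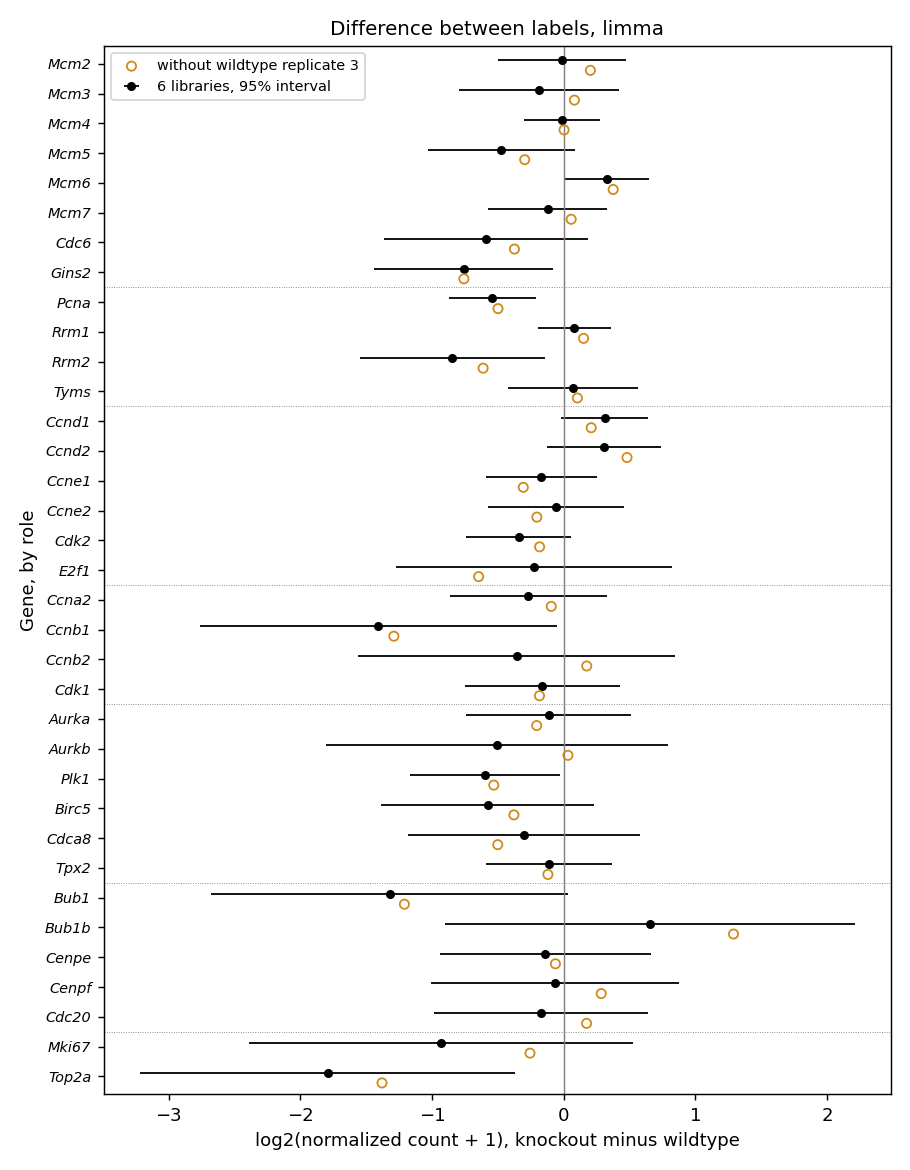
Log2 difference in normalized count + 1, knockout minus wildtype, for each of the 35 genes with its 95% interval from limma (black), and the same difference without wildtype replicate 3 (open circles). Most black points lie left of 0, and the open circles of Mcm2, Mcm3, Mcm4, Mcm7, Ccnb2, Aurkb, Cenpf and Cdc20 lie right of it.

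Of the 8 licensing and helicase genes 7 had a difference below 0 and 1, Mcm6, above. Without wildtype replicate 3 only 3 of the 8 were below 0. Mcm2 to Mcm7 encode the 6 subunits of one ring, which loads onto origins and unwinds DNA at the fork. Their levels per kilobase were spread over 3.33-fold, the lowest being Mcm5 with 75.7 and the highest Mcm4 with 252.0 normalized counts per kilobase. Mcm4 had 960, 806 and 938 normalized counts in libraries labelled knockout and 951, 846 and 925 in those labelled wildtype. These values overlap almost fully (log2 difference -0.01, SE 0.12, adjusted p = 0.968 by limma). Mcm5 had 236, 165 and 241 in the libraries labelled knockout, against 270, 249 and 375 in those labelled wildtype. Mcm6 had 639, 544 and 647 in the libraries labelled knockout, against 477, 460 and 516 in those labelled wildtype. The groups thus separated in opposite directions for these partners of the ring, with log2 differences of -0.47 for Mcm5 (SE 0.24, adjusted p = 0.307 by limma) and 0.33 for Mcm6 (SE 0.13, adjusted p = 0.238 by limma), neither past the threshold. The value of Mcm5 was -0.30 without wildtype replicate 3 and -0.30 without knockout replicate 2, and that of Mcm6 was 0.21 after transcript length correction. Mcm2, Mcm3 and Mcm7 differed by -0.01, -0.19 and -0.12, and each was highest in wildtype replicate 3. Without that library the differences were 0.20, 0.08 and 0.06. A processed pseudogene, Gm5487, matches 72.8% of the Mcm7 transcript at 97.7% identity, so the value of Mcm7 is uncertain.

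The other members of this group load or complete the helicase. Cdc6, which helps to load MCM rings, averaged 32.7 ± 5.5 normalized counts in libraries labelled knockout and 51.0 ± 16.0 in those labelled wildtype (SD, n = 3 each), and 1 of the wildtype values, 35, lay inside the knockout range of 29 to 39. Gins2, a subunit of the GINS complex of the working helicase, had 65, 45 and 35 in the libraries labelled knockout, against 75, 85 and 80 in those labelled wildtype. All knockout values lay below (0.604 times the wildtype mean, log2 difference -0.76, SE 0.29, adjusted p = 0.219 by limma), and the difference was the same without wildtype replicate 3 (-0.76). The exons of Gins2 overlap those of Gse1 on the other strand over 67.3% of their length, and no label or header says whether strand was counted, so the value of Gins2 is uncertain. Gse1 had 354.7 normalized counts per kilobase, where Gins2 had 16.5, and a log2 difference of the other sign, with 2774, 2740 and 3094 in the libraries labelled knockout and 2275, 1890 and 2396 in those labelled wildtype.

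At the fork, the clamp gene Pcna had the smallest p of the 35 genes. It had 771, 684 and 712 normalized counts in libraries labelled knockout, against 895, 1163 and 1120 in those labelled wildtype. Every library labelled knockout lay below every one labelled wildtype, and the mean was 0.682 times the wildtype mean (722.3 ± 44.4 in the libraries labelled knockout and 1059 ± 144 in those labelled wildtype, SD, n = 3 each). The log2 difference was -0.54 (SE 0.14, 95% interval -0.87 to -0.21), with an adjusted p of 0.162 by limma that did not pass. In the authors' deposited table Pcna was 1.47-fold lower with a false discovery rate of 0.0207. The difference was -0.50 without wildtype replicate 3 and -0.37 after transcript length correction. A processed pseudogene, Pcna-ps2, matches 51.4% of the transcript at 99.2% identity, so its value is uncertain. In all, 7 of the 35 genes match a transcript of another locus over at least 200 bases at 95% identity, and 11 share exon bases with an overlapping gene. After Gins2 the largest overlaps were 23.4% of the exon bases of Ccnd1, 17.4% of Ccne2 and 12.5% of Ccna2, each with a gene on the other strand. The pseudogene Gm9430 matches 33.0% of the Cdc6 transcript at 95.2% identity. The values of these genes are therefore uncertain too.

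Ribonucleotide reductase supplies deoxynucleotides for DNA synthesis. Rrm2, the small subunit made in S phase, had 37, 49 and 40 normalized counts in libraries labelled knockout, against 59, 70 and 105 in those labelled wildtype, again without overlap (log2 difference -0.85, SE 0.30, adjusted p = 0.202 by limma). Rrm1, the large subunit, had 1426, 1300 and 1508 in the libraries labelled knockout, against 1271, 1266 and 1465 in those labelled wildtype. These overlap (log2 difference 0.08, SE 0.12, adjusted p = 0.729 by limma). Tyms, thymidylate synthase, averaged 85.7 ± 8.1 in the libraries labelled knockout and 81.3 ± 5.5 in those labelled wildtype (SD, n = 3 each) and the groups overlap.

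**Figure D3:**
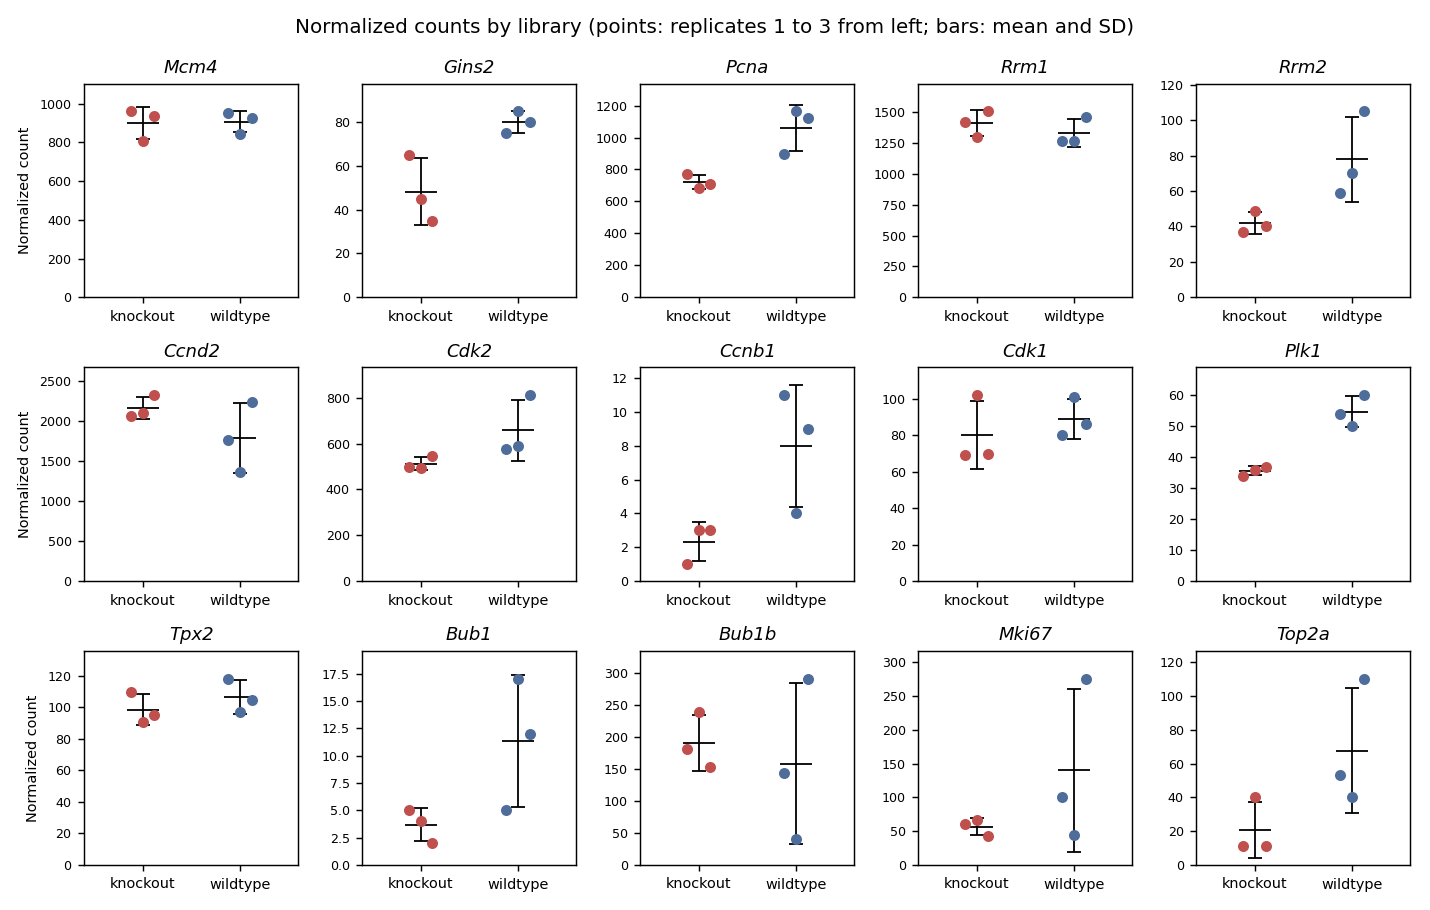
Normalized counts of 15 genes in each library (points), with the mean and SD of each label (bars); the 3 libraries labelled knockout are left of the 3 labelled wildtype in each panel and every axis starts at 0. The groups do not overlap for Gins2, Pcna, Rrm2, Cdk2, Ccnb1 and Plk1, where 28.5% of all genes had groups that do not overlap. The 15 genes were chosen in part for the size of their difference. A single high wildtype library, replicate 3, sets the mean of Mki67.

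Genes of G1 and S entry overlapped between labels as a group. Their mean deviation was 0.06, 0.03 and -0.13 in knockout replicates 1, 2 and 3, against 0.16, 0.02 and -0.14 in wildtype replicates 1, 2 and 3. Ccnd2, a D-type cyclin that couples growth signals to Cdk4 and Cdk6, had 2065, 2106 and 2321 normalized counts in libraries labelled knockout, against 1760, 1362 and 2232 in those labelled wildtype, with overlap at the top (log2 difference 0.31, SE 0.18, adjusted p = 0.389 by limma). Ccnd1, its close relative, averaged 833.7 ± 68.3 in the libraries labelled knockout and 674.3 ± 84.2 in those labelled wildtype (SD, n = 3 each). Its knockout values all lay above, by 0.31 on the log2 scale (SE 0.14, adjusted p = 0.274 by limma). Both D-type cyclins thus had higher means in the libraries labelled knockout, against the direction of most of the set, but that of Ccnd2 was 0.12 without wildtype replicate 2 and 0.04 after transcript length correction. Cdk2, the kinase of cyclins E and A, had 498, 494 and 547 in the libraries labelled knockout, against 576, 588 and 811 in those labelled wildtype, without overlap (log2 difference -0.34, SE 0.17, adjusted p = 0.301 by limma; -0.18 without wildtype replicate 3). Ccne1, Ccne2 and E2f1, the E-type cyclins and the E2F activator of S phase genes, had differences of -0.17, -0.06 and -0.22 with overlapping groups. E2f1 was lowest in replicate 3 of both labels, at 33 and, in wildtype, 31 normalized counts.

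The cyclins and kinase of late S phase and mitosis were low, and single libraries weighed heavily. Cdk1, the kinase that starts mitosis, had 69, 102 and 70 normalized counts in libraries labelled knockout, against 80, 101 and 86 in those labelled wildtype, with full overlap (log2 difference -0.16, SE 0.25, adjusted p = 0.749 by limma). Ccna2, cyclin A2 of S phase and G2, averaged 68.7 ± 9.0 in the libraries labelled knockout and 83.7 ± 18.5 in those labelled wildtype (SD, n = 3 each), and the groups overlap. Ccnb1, cyclin B1, the partner of Cdk1 in mitosis, had 1, 3 and 3 in the libraries labelled knockout and 11, 4 and 9 in those labelled wildtype. The groups do not overlap, but at these levels the log2 difference of -1.41 (SE 0.57, adjusted p = 0.238 by limma) rests on a few normalized counts. The processed pseudogenes Gm12856, Gm8416 and Ccnb1-ps match 51.9%, 51.8% and 51.7% of the transcript at 98.1%, 97.3% and 99.2% identity. The level of Ccnb1 is therefore uncertain too. Ccnb2, cyclin B2, had 20, 14 and 16 in the libraries labelled knockout, against 14, 15 and 46 in those labelled wildtype. Wildtype replicate 3 alone stood above the rest: the difference was -0.36 with it and 0.17 without it.

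Among the mitotic kinases and chromosomal passengers all 6 genes had a negative difference, 5 of 6 without wildtype replicate 3. The groups did not overlap for 2 of the 6, where 28.5% of all genes had groups that do not overlap. Plk1, the Polo-like kinase of centrosomes and kinetochores, had 34, 36 and 37 normalized counts in libraries labelled knockout, against 54, 50 and 60 in those labelled wildtype. The values of each label lay close together and well apart from the other (log2 difference -0.60, SE 0.24, adjusted p = 0.235 by limma; -0.53 without wildtype replicate 3). Birc5, survivin of the chromosomal passenger complex, averaged 23.3 ± 5.7 in the libraries labelled knockout and 35.3 ± 9.2 in those labelled wildtype (SD, n = 3 each), with a highest knockout value of 28 and a lowest wildtype value of 30. Tpx2, which activates Aurora A on the spindle, had 110, 91 and 95 in the libraries labelled knockout, against 118, 97 and 105 in those labelled wildtype, which overlap (log2 difference -0.11, adjusted p = 0.793 by limma). Aurka and Cdca8, Aurora A and the passenger protein borealin, had differences of -0.11 and -0.30 with overlapping groups. Aurkb, Aurora B, had 6 to 7 normalized counts in 5 of the 6 libraries and 22 in wildtype replicate 3.

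Kinetochore and checkpoint genes had mixed directions, with 4 of 5 differences below 0, and 2 of 5 without wildtype replicate 3. Bub1, a checkpoint kinase, had 5, 4 and 2 normalized counts in libraries labelled knockout, against 5, 17 and 12 in those labelled wildtype, touching at 5 (log2 difference -1.32, SE 0.57, adjusted p = 0.259 by limma). Bub1b, which encodes the checkpoint protein BubR1, had 182, 239 and 153 in the libraries labelled knockout, against 144, 40 and 291 in those labelled wildtype. Its wildtype values spanned the whole knockout range. The log2 difference of 0.65 (SE 0.66, adjusted p = 0.610 by limma) was 1.29 without wildtype replicate 3 and -0.12 without wildtype replicate 2. Cenpe and Cenpf, large kinetochore proteins, and Cdc20, the activator of the anaphase-promoting complex, had differences of -0.14, -0.07 and -0.17 with overlapping groups. Cenpf and Cdc20 were highest in wildtype replicate 3, with 43 and 217 normalized counts.

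The proliferation markers Mki67 and Top2a were lower in the mean of the libraries labelled knockout and varied widely between libraries. Mki67, whose product coats mitotic chromosomes, had 61, 66 and 43 normalized counts in libraries labelled knockout, against 101, 44 and 275 in those labelled wildtype. Wildtype replicate 3 had 3.79 times the mean of the other wildtype libraries, and wildtype replicate 2 lay inside the knockout range. The log2 difference was -0.93 (SE 0.62, adjusted p = 0.433 by limma), and -0.26 without wildtype replicate 3. Top2a, topoisomerase II alpha, which untangles sister chromosomes, had 11, 40 and 11 in the libraries labelled knockout, against 53, 40 and 110 in those labelled wildtype, touching at 40. Its log2 difference of -1.79 (SE 0.60, adjusted p = 0.194 by limma) was -1.38 without wildtype replicate 3. Mki67 and Top2a agreed in where wildtype replicate 3 lay and differed in knockout replicate 2, which had the highest of the knockout values of both but, for Top2a, 40 against 11 in the other knockout libraries.

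Markers of red cells and marrow cells also had lower levels in the libraries labelled knockout. By limma 0 of the 18 red cell markers passed, while the authors' deposited table called 9 of the 12 with a rate, against 7.39% of all genes. Hbb-b2 and Hbb-bt have the same value in every library, and counted once they leave 8 of 11. Wildtype replicate 3 was the highest of the 6 libraries for 17 of the 35 genes (48.6%, against 27.6% of all genes), for 16 of 18 red cell markers and for 10 of 10 late neutrophil granule markers. The mean deviation of the red cell list was -0.59, -0.98 and -1.59 in knockout replicates 1, 2 and 3, against 0.68, 0.34 and 2.14 in wildtype replicates 1, 2 and 3. Its summed level was 8251 to 10310 normalized counts in libraries labelled knockout and 14764 to 37291 in those labelled wildtype. Much of the knockout sums, and a smaller part of the wildtype sums, was Add2, a membrane skeleton gene. Add2 had 4442, 6374 and 5494 in the libraries labelled knockout and 4842, 3310 and 2356 in those labelled wildtype. Without Add2, and with the identical markers counted once, a choice made after the values were seen, the sums were 2728 to 3933 in the libraries labelled knockout and 10752 to 33322 in those labelled wildtype. Of its erythroid transcription factors, Gata1 was listed at 0 in all 3 libraries labelled knockout and at 7, 6 and 22 in those labelled wildtype. Klf1 had 18, 19 and 7 in the libraries labelled knockout and 25, 11 and 23 in those labelled wildtype, which overlap. The late neutrophil granule list summed to 113 to 812 in the libraries labelled knockout and 884 to 2917 in those labelled wildtype. Its gene Ltf had 460, 61 and 1 in knockout replicates 1, 2 and 3, against 103, 103 and 534 in wildtype replicates 1, 2 and 3. The mean deviation of the list was -0.22, -0.28 and -3.30 in knockout replicates 1, 2 and 3, so knockout replicate 3 lay far below the others. It was 0.60, 0.90 and 2.31 in wildtype replicates 1, 2 and 3. The mean deviation of 7 early myeloid genes was -0.31, -0.42 and -1.71 in knockout replicates 1, 2 and 3, against 0.66, 0.48 and 1.30 in wildtype replicates 1, 2 and 3. The B lineage list had mean deviations of -0.33, -0.05 and -0.74 in knockout replicates 1, 2 and 3, against 0.09, 0.28 and 0.74 in wildtype replicates 1, 2 and 3. The part of marrow or blood cells in the levels of the 35 genes was not tested. Macrophage markers had a summed level of 11146 to 12642 in the libraries labelled knockout and 11634 to 12880 in those labelled wildtype. Of the nerve's own markers, 13 peripheral myelin genes had a mean difference of -0.26, with 10 below 0. Without wildtype replicate 3 it was -0.42, with 12 below 0. For 13 spiral ganglion neuron genes it was 0.21, with 8 above 0, and -0.01 without wildtype replicate 3. The authors' deposited table called 3 of the 13 myelin genes lower and 2 of the 13 neuron genes higher, against 7.39% of all genes. The mean difference of 8 endothelial genes was 0.32, with 7 above 0. That of 10 osteoblast genes was -0.51 but their median was 0.004, with 5 below and 5 above 0, and that of 7 T and NK lineage genes was -0.31 with a median of -0.11, 4 below and 3 above 0.

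**Figure D4:**
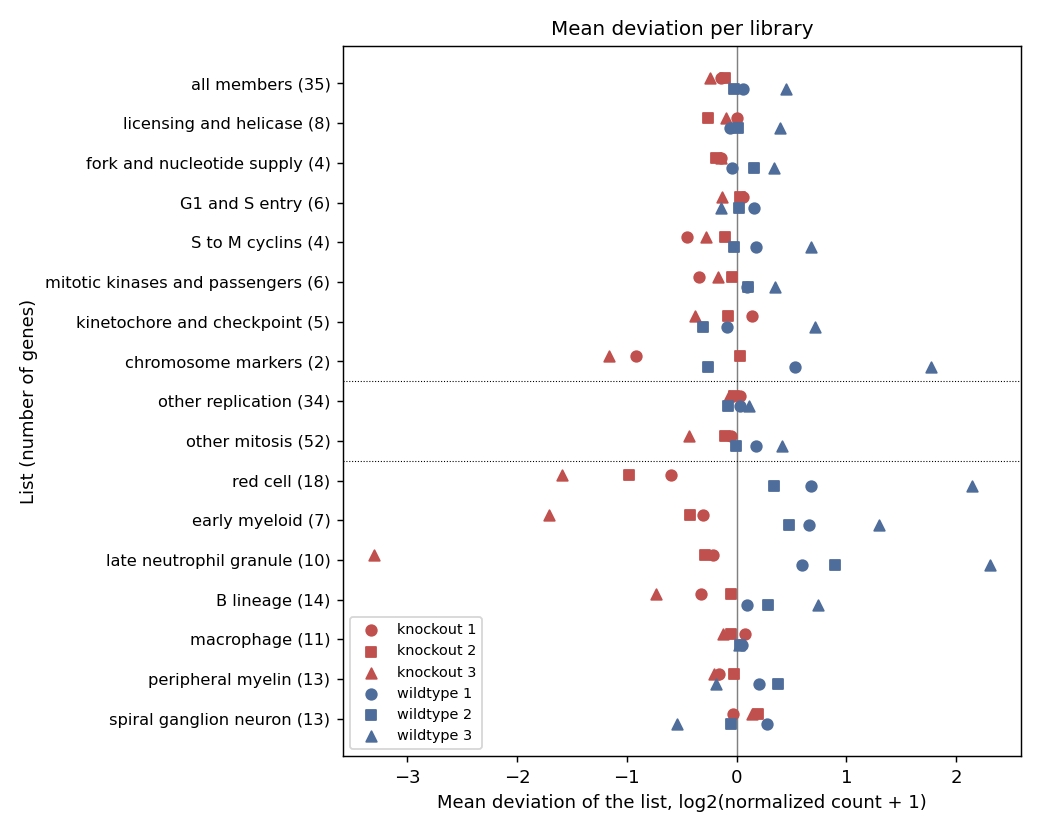
Mean deviation of each list of genes in each library, on the log2(normalized count + 1) scale, for the 35 genes together and by role (top), other cell cycle genes (middle) and cell type markers (bottom); the number of genes is in parentheses. Wildtype replicate 3 (blue triangles) lies furthest right for the 35 genes together at 0.45 and for the red cell list at 2.14.

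Other genes of the cell cycle, taken from a list of 112 measured genes, had the same count: 0 passed by limma over all genes, with 15 lower (13.4%, against 9.20% of all genes) and 5 higher (4.46%, against 10.8%) in the libraries labelled knockout at an unadjusted p under 0.05. Of the 96 with a rate in the authors' deposited results, 2 were under 0.05 (2.08%, against 7.39% of all genes with a rate). Both were regulators of the entry into mitosis and both were lower in the libraries labelled knockout. Pkmyt1, a kinase that holds Cdk1 inactive, had 91, 102 and 85 normalized counts in libraries labelled knockout, against 176, 202 and 164 in those labelled wildtype. The values of the labels lay far apart (0.513 times the wildtype mean, log2 difference -0.95, SE 0.19, adjusted p = 0.149 by limma; false discovery rate 0.00145 in the authors' deposited table). Without wildtype replicate 3 it passed, with a log2 difference of -1.02 and an adjusted p of 0.045 by limma, in a range of 0.045 to 0.485 over the alternatives. Calls over all genes also rose in that setting, so passing there is not particular to Pkmyt1. Foxm1, the transcription factor that drives mitotic genes, had 79, 83 and 79 in the libraries labelled knockout, against 135, 123 and 175 in those labelled wildtype, also without overlap (log2 difference -0.82, SE 0.22, adjusted p = 0.162 by limma; false discovery rate 0.0235 in the authors' deposited table).

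The wider lists were described in the same way. The mean difference of 34 other replication genes was -0.04 and that of 52 other mitosis genes -0.39, against 0.05 over all genes; without wildtype replicate 3 they were 0.004 and -0.28. Of the other replication genes 19 had a difference below 0, and of the other mitosis genes 38. The replication genes with the highest mean counts were Dnmt1, the methyltransferase that copies DNA methylation at the fork, with a mean of 3156 ± 186 normalized counts in libraries labelled knockout and 2142 ± 443 in those labelled wildtype (SD, n = 3 each), and Slbp, which binds histone messages, with 1214 ± 99.9 in the libraries labelled knockout and 1392 ± 141 in those labelled wildtype. Dnmt1 did not pass (log2 difference 0.58, SE 0.17, adjusted p = 0.171 by limma). It did without wildtype replicate 3 (0.71, adjusted p = 0.0477 by limma, in a range of 0.0477 to 0.485 over the alternatives), where calls over all genes also rose. Its difference was 0.34 after transcript length correction. The mitosis genes with the highest mean counts were Bub3, a checkpoint protein, with a log2 difference of -0.32, and Stmn1, a microtubule regulator that neurons also express, with -0.45; neither passed (adjusted p = 0.219 and 0.421 by limma). The value of Stmn1 was -0.13 without wildtype replicate 2, -0.77 without wildtype replicate 3 and -0.20 after transcript length correction.

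Of 6 inhibitors of cyclin-dependent kinases, which hold cells in G1, Cdkn1a had 2156 and Cdkn1b 1764 normalized counts per kilobase, the highest of the 6, while Cdkn2b had 19.3 and Cdkn2c 50.8. Cdkn1b, the gene of p27, had 8091, 8549 and 9276 normalized counts in libraries labelled knockout, against 7287, 8732 and 6233 in those labelled wildtype (log2 difference 0.23, adjusted p = 0.416 by limma; 0.11 without wildtype replicate 3 and 0.10 after transcript length correction). Cdkn1a, the p53 target p21, had 3117, 3052 and 3024 in the libraries labelled knockout, against 3483, 4097 and 10132 in those labelled wildtype. The knockout values lay within a narrow band below all wildtype values, and wildtype replicate 3 stood far above (log2 difference -0.78, SE 0.37, adjusted p = 0.291 by limma; -0.30 without wildtype replicate 3). The library that was highest for Mki67 and Top2a was thus also highest for this inhibitor of division.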

How the data were processed

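The deposited table holds a score per gene and library, made by the authors: gene counts scaled per library and rounded, read as such from the values, with the authors' signed fold change (a score) and false discovery rate, which 2061 genes lack (other). Per the submitters' processing notes the tools were TopHat2, DESeq2 and Partek and the build mm10; versions and roles are not stated. Because the values are scaled, no count test was run.

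Values were transformed as log2(value + 1), which understates the change of low genes. A minimum mean of 1 removed 0 genes. The fit over all genes used limma 3.58.1 (R 4.3.3) with label alone (eBayes with trend, Benjamini-Hochberg, threshold 0.05); the code was tested on simulated data. With 3 libraries against 3, an exact permutation test could not go below 0.1, so none was used. The chi-square per gene between 2 libraries was 24.6 or more. The values are scaled and the read depth is unknown, so it cannot be set against sampling noise. Lengths, exon overlaps and copies (blastn 2.17.0, at least 200 bases at 95% identity) came from GENCODE M21; 99.0% of genes had a length. The 35 genes, lists and tests were chosen with earlier results of these data known. Values in every library are given for members called by limma or the authors and, per role, for the member with the highest mean and the one with the largest difference; further values (Mcm5, Mcm6, Ccnb2, Gata1 and others) were added after they were seen. Of other lists up to 4 called genes, or the 2 most abundant, are named. 0 sample columns were left unused.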

Additional observations from a re-analysis of the deposited data

How the results depend on the processing

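Under every alternative run, limma called 0 of the 35 genes. The number of calls over all genes was 28 (18 higher, 10 lower), 7 (4 and 3) with the replicate block and 111 (82 and 29) with library weights, which gave wildtype replicate 3 the lowest weight. Leaving out 1 library gave 0 to 566 calls over all genes (0 to 449 higher, 0 to 117 lower), with 0 without any knockout replicate and 566 without wildtype replicate 3. It gave 0 to 2 calls among the 112 other cell cycle genes. The 2 (Pkmyt1, Dnmt1) came without wildtype replicate 3, where 566 of 17643 genes were called, so the share was not higher among the other cell cycle genes. Same-numbered deviations from the label means correlated over genes at -0.048, 0.078 and 0.214. The largest correlation, 0.42, was between knockout replicate 2 and wildtype replicate 1. The deviations sum to 0 within each label, so these correlations cannot show whether libraries were paired. The mean difference of the 35 genes was -0.238 to -0.413 over a larger pseudocount, a minimum mean of 10, quantile normalization and length correction, and -0.157 over the 24 genes with a mean of at least 50, an alternative chosen after seeing the data. No difference that changed sign was called under any alternative; the cause was not tested. They were Tyms (-0.081) under quantile normalization, Mcm2 (0.117), Cenpf (0.137) and Cdc20 (0.046) with library weights, and Rrm1 (-0.0059) and Aurka (0.0053) after length correction. Without 1 library the ranges were -0.134 to 0.203 for Mcm2, -0.336 to 0.0816 for Mcm3, -0.0616 to 0.0664 for Mcm4, -0.256 to 0.0569 for Mcm7, -0.204 to 0.0559 for Ccne2, -0.646 to 0.0408 for E2f1, -0.648 to 0.175 for Ccnb2, -0.212 to 0.0511 for Aurka, -0.826 to 0.0321 for Aurkb, -0.122 to 1.29 for Bub1b, -0.362 to 0.0744 for Cenpe, -0.359 to 0.285 for Cenpf and -0.432 to 0.174 for Cdc20. The unknown read depth limits what can be said of the lowest genes.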

Other observations

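Nek2, a centrosome kinase of the wider mitosis list, was split within the libraries labelled knockout. It had 175, 220 and 21 normalized counts in knockout replicates 1, 2 and 3, against 21, 20 and 56 in wildtype replicates 1, 2 and 3, so 2 knockout libraries lay far above the other 4. Its fold change in the authors' deposited table was 4.30 with a false discovery rate of 0.0725. It was chosen after its values were seen.

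Among the least abundant mitosis genes, also chosen after their values were seen, Hmmr had 6, 5 and 0 normalized counts in libraries labelled knockout, against 18, 9 and 18 in those labelled wildtype. Ube2c had 0, 5 and 8 in the libraries labelled knockout, against 13, 11 and 30 in those labelled wildtype. Neither has a rate in the authors' deposited table, and neither passed by limma (adjusted p = 0.219 and 0.234).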
